A study of Harpegnathos saltator with 19 samples.

Results

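Mef2 (LOC105192578), Smox (LOC105184734), ken (LOC105186820) and Glut4EF (LOC105190405) are 4 genes for transcription regulators, of 14001 genes measured in the central brain of workers of the ant Harpegnathos saltator. They were chosen by their measured levels in these same libraries, as regulators that were lower after 20-hydroxyecdysone (20E) than after juvenile hormone III (JH3). That difference is therefore described here and not tested. What the choice left undecided is where the DMSO control lies, that is, whether 20E lowered each gene, JH3 raised it, or both. The 3 groups, per the labels, were workers injected in the head with 100 ng of 20E (7 ants), workers injected with 100 ng of JH3 (7 ants) and workers given the DMSO control (5 ants). Both hormones were given in a glucose solution, and the labels do not say how much DMSO the controls received or whether the hormone solutions held it. Brains were taken 10 h later, and each library came from the brain of 1 ant. Replicates 1 to 3 of every group carry the run label 190514 in the sample descriptions and the others carry 200212, which leaves 4 ants of 20E, 4 of JH3 and 2 of DMSO in the second run.

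20E is the active moulting hormone of insects and acts through a nuclear receptor pair. Juvenile hormone acts through a separate receptor and the zinc finger factor Kr-h1, and in many insects the hormones have opposed effects on the timing of development. In flies, Smox is the signal transducer of the activin branch of TGF-beta signalling: the receptor kinase babo phosphorylates it, and with the partner protein Med it enters the nucleus. In fly mushroom body neurons this branch is needed for expression of an ecdysone receptor isoform before neurons are pruned. Mef2 is a MADS-box activator, known for muscle differentiation and, in the fly brain, for its presence in the Kenyon cells of the mushroom body and in clock neurons. Glut4EF is named after a mammalian zinc finger protein that binds the glucose transporter gene GLUT4 together with a MEF2 protein. In flies ken is a zinc finger repressor that acts on part of the targets of the JAK/STAT pathway. Functions given below are those of the fly genes.

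Levels are the authors' FPKM values, in which reads are scaled to gene length and library depth. The libraries held 13.04 to 25.52 M reads on genes, with 1070 to 39941 reads on a member in any 1 library. All 4 members passed the filter for testing (FPKM of at least 1 in at least 5 libraries), as did 9381 genes in all. Response genes of each hormone were read first. The ecdysone response gene E75 averaged 619 ± 137 FPKM in 20E, 170 ± 45.2 in JH3 and 74.4 ± 11.5 in DMSO, and Kr-h1 averaged 4.11 ± 4.57 FPKM in 20E, 18.3 ± 7.36 in JH3 and 1.79 ± 1.01 in DMSO (SD, n = 7, 7 and 5). Hr4, another ecdysone response gene, averaged 33.1 FPKM in 20E, 2.14 in JH3 and 1.15 in DMSO. These checks were not specific to 1 hormone. In JH3 against DMSO the log2 fold change was 1.08 ± 0.13 for E75 and 0.63 ± 0.14 for Hr4 (limma adjusted p = 1.32e-04 and 0.0322). Kr-h1 in 20E had a median of 2.59 FPKM and 14.4 FPKM in the highest brain. Neuron markers were high throughout, with the synaptic gene nSyb at 130 to 226 FPKM in 20E, 134 to 195 in JH3 and 148 to 180 in DMSO. In 20E replicate 6 the library size implied by the authors' FPKM, over the reads on genes, was 0.763 of the median library, against 0.898 to 1.12 in the other libraries.

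Smox had 15.1 FPKM in the lowest, 19.4 in the median and 25.5 in the highest of the 7 20E brains. In the 7 JH3 brains the lowest was 30.6, the median 42.7 and the highest 54.9 FPKM. The 5 DMSO brains held 19.8, 20.3, 16.4, 23.5 and 28.2 FPKM. Every JH3 brain lay above every DMSO brain, while the 20E and DMSO brains overlapped, with 2 of 7 20E brains below the lowest DMSO brain and 5 of 7 below the DMSO mean. The mean was 19.6 ± 3.98 FPKM in 20E, 41.7 ± 9.0 in JH3 and 21.6 ± 4.45 in DMSO (SD). The share of all tested genes whose groups lie fully apart was not counted, for Smox or for the other members. Such separations are therefore only described, and those of 20E from JH3 follow the choice of the members.

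Smox had the lowest fitted spread between libraries of the 4 genes, 0.14 on the log2 scale once group and run were fitted. JH3 raised it 1.79-fold over DMSO (log2 fold change 0.84 ± 0.09, SE, limma adjusted p = 1.47e-05). Within the runs the log2 fold change was 0.81 ± 0.12 and 0.88 ± 0.14 (run 190514, then 200212), and run 200212, with 2 DMSO brains, did not pass alone (limma adjusted p = 0.0847). In 20E against DMSO the log2 fold change was -0.22 ± 0.09 (95% interval -0.40 to -0.04, limma adjusted p = 0.291, -0.23 and -0.21 within the runs). It did not pass with the authors' scaling. It did with scaling to total reads (-0.29, limma adjusted p = 0.0242) and with the gene length trend removed (-0.30, limma adjusted p = 0.0056). Over all alternatives the adjusted p ran from 0.0056 to 1.0.

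Mef2 had the highest level of the 4 genes, above 96.7% of tested genes in DMSO, and encodes the MADS-box activator. In 20E it had 44.5, 71.3 and 99.0 FPKM in the lowest, median and highest brain. In JH3 it had 90.4, 142 and 188 FPKM in the lowest, median and highest brain. The 5 DMSO brains held 70.8, 53.6, 55.8, 100 and 118 FPKM. The pooled JH3 and DMSO ranges overlapped, but within each run every JH3 brain lay above every DMSO brain. The 20E and JH3 ranges also overlapped when the runs were pooled and did not within either run.

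The mean of Mef2 was 71.7 ± 21.0 FPKM in 20E, 143 ± 36.8 in JH3 and 79.7 ± 28.4 in DMSO (SD). JH3 raised it 1.68-fold over DMSO (log2 fold change 0.75 ± 0.13, limma adjusted p = 0.0051). The values within the runs were 0.86 ± 0.19 and 0.61 ± 0.19. In 20E against DMSO the log2 fold change was -0.25 ± 0.13 (95% interval -0.53 to 0.02, limma adjusted p = 0.642), with -0.17 and -0.37 within the runs. In run 200212 all 4 20E brains lay below both DMSO brains, the nearest at 99.0 against 100.1 FPKM. In run 190514 2 of 3 20E brains lay below all 3 DMSO brains. The call for JH3 ended without the run term (0.87, limma adjusted p = 0.189) and in either run alone (limma adjusted p = 0.205 and 0.743). Over all alternatives its adjusted p ran from 0.00175 to 0.743.

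Glut4EF, the zinc finger gene, had 15.8, 20.0 and 36.8 FPKM in the lowest, median and highest 20E brain. In the JH3 brains these were 39.0, 46.5 and 62.6 FPKM. The 5 DMSO brains held 14.8, 19.3, 12.9, 21.9 and 28.4 FPKM. All 7 JH3 brains lay above every 20E and every DMSO brain, and 1 of 7 20E brains, replicate 6, lay above the DMSO range. The direction of JH3 against 20E is the one for which the gene was chosen.

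The mean of Glut4EF was 22.1 ± 7.19 FPKM in 20E, 47.8 ± 7.56 in JH3 and 19.4 ± 6.11 in DMSO (SD). JH3 raised it 2.39-fold over DMSO, the largest of the 4 folds (log2 fold change 1.26 ± 0.17, limma adjusted p = 0.00038). The estimate was 1.62 ± 0.19 in run 190514 and 0.89 ± 0.22 in run 200212, where it did not pass alone (limma adjusted p = 0.388). The difference between the runs, 0.73 ± 0.30, did not pass over all genes (limma adjusted p = 0.984, unadjusted p = 0.0291). In 20E against DMSO the log2 fold change was 0.12 ± 0.17 (95% interval -0.24 to 0.48, limma adjusted p = 1.0), with 0.13 and 0.02 within the runs. Without 20E replicate 6 it was 0.02, and it was above 0 under every alternative run.

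The repressor gene ken had 6.39, 7.94 and 9.06 FPKM in the lowest, median and highest 20E brain. In the JH3 brains the lowest was 14.9, the median 16.3 and the highest 25.6 FPKM. The 5 DMSO brains held 13.4, 12.4, 14.4, 12.95 and 14.9 FPKM. Every 20E brain lay below every DMSO brain, in both runs. Of the JH3 brains, 6 of 7 lay above every DMSO brain, and all 7 lay above the DMSO mean.

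The mean of ken was 7.89 ± 1.04 FPKM in 20E, 17.7 ± 3.63 in JH3 and 13.6 ± 1.04 in DMSO (SD). 20E lowered it to 0.591 times the DMSO level (log2 fold change -0.76 ± 0.12, limma adjusted p = 0.000583), with -0.87 ± 0.18 and -0.69 ± 0.11 within the runs. Run 190514 alone did not pass (limma adjusted p = 0.0644). In JH3 against DMSO the log2 fold change was 0.35 ± 0.12 (95% interval 0.10 to 0.60, limma adjusted p = 0.295), and it passed under none of the alternatives. The values within the runs were 0.50 ± 0.18 and 0.22 ± 0.11. Without JH3 replicate 1, the brain with 25.6 FPKM, the log2 fold change was 0.24.

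**Figure D1:**
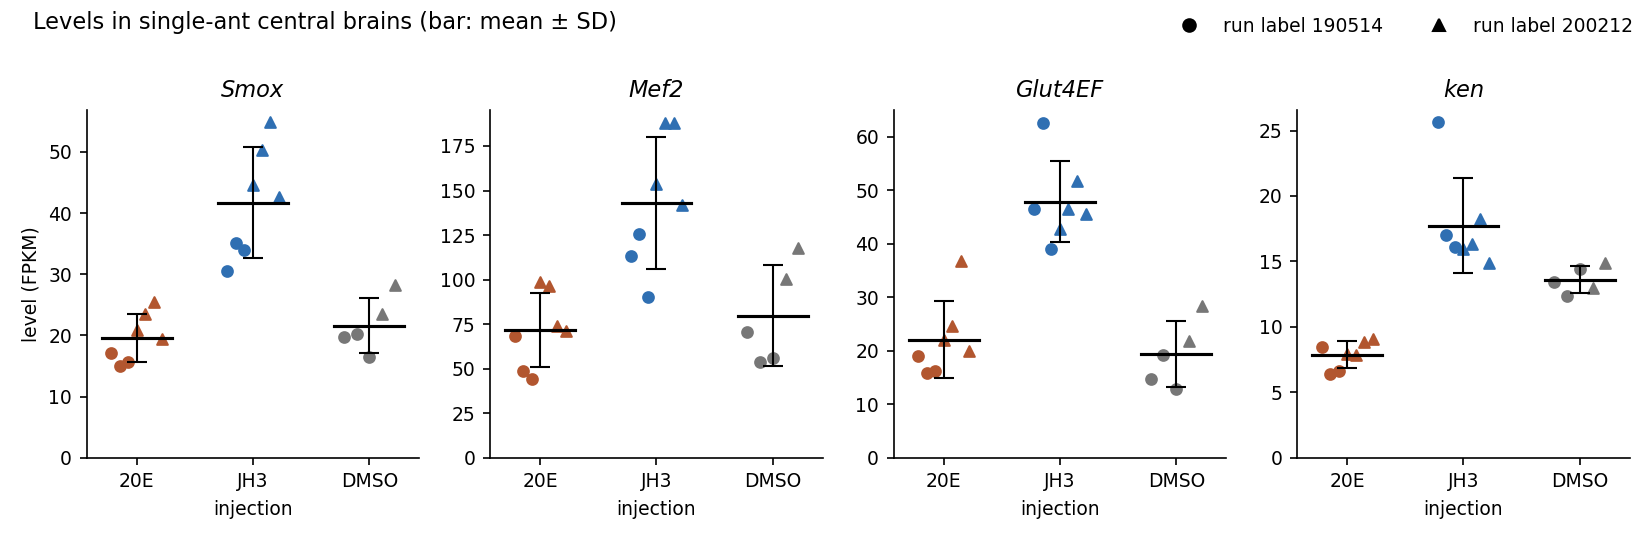
Level of each gene in FPKM (y axis, from 0) in every brain of the 20E, JH3 and DMSO groups (x axis); circles are run label 190514, triangles 200212, and the bar gives the mean ± SD of the group. The JH3 brains of Smox and Glut4EF lie above all others, the 20E brains of ken lie below all others, and the triangles of Smox and Mef2 lie mostly above the circles of the same group.

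Set side by side, 3 of the 4 genes were called higher in JH3 than in DMSO (Smox, Mef2 and Glut4EF). In that comparison 0.629% of all tested genes were called higher and 0.298% lower. The fitted value of ken was also above DMSO there (0.35), without a call. In 20E against DMSO, 1 of the 4 was called lower (ken), where 0.746% of all tested genes were called lower and 2.59% higher. No member was called in both comparisons, and the share of all tested genes called in both was not counted. These comparisons share the DMSO brains, and choosing genes that are lower in 20E than in JH3 favours a negative value under 20E and a positive one under JH3, so the counts are not independent of the choice. In 20E against JH3 itself, where 1.44% of all tested genes were called lower and 3.9% higher, the fitted log2 differences were alike in size: -1.07 for Smox, -1.003 for Mef2, -1.14 for Glut4EF and -1.11 for ken. Of that distance, the step between 20E and DMSO made up 20.9% for Smox, 25.4% for Mef2, -10.5% for Glut4EF and 68.4% for ken. The negative share of Glut4EF means that its fitted 20E level lay above DMSO.

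**Figure D2:**
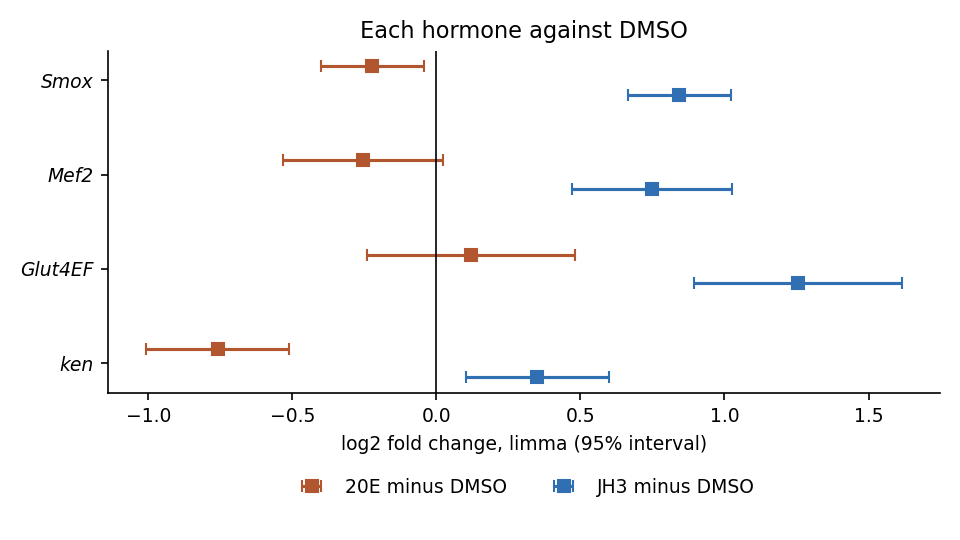
Log2 fold change of each gene (x axis, limma, with its 95% interval) in 20E minus DMSO and in JH3 minus DMSO. In 20E the intervals of ken and Smox lie below 0, of which ken passed over all genes, and those of Smox, Mef2 and Glut4EF in JH3 lie furthest above 0.

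The comparison of 20E with JH3 does not use the DMSO brains. The position of DMSO relative to the midpoint of 20E and JH3 was therefore tested, a contrast orthogonal to 20E against JH3 in this layout. Members and tests were chosen with earlier results of these data known, so this test was not blind to them. A negative value puts DMSO on the 20E side, so that the larger step is the one made by JH3. Glut4EF passed, with DMSO 0.69 ± 0.15 below the midpoint (log2 difference -0.69, 95% interval -1.01 to -0.37, limma adjusted p = 0.0273), where 0.981% of all tested genes were called below and 0.394% above. Smox lay next to the threshold (-0.31 ± 0.08, 95% interval -0.47 to -0.15, limma adjusted p = 0.0514, 0.00739 to 1.0 over the alternatives). Mef2 had a difference of -0.25 ± 0.12 (95% interval -0.50 to 0.00, limma adjusted p = 0.675). For ken, the only one with DMSO on the JH3 side, it was 0.20 ± 0.11 (95% interval -0.02 to 0.43, limma adjusted p = 0.766). The order of the groups was thus 20E, DMSO, JH3 for Smox, Mef2 and ken. The neighbours 20E and DMSO did not differ beyond the threshold in Smox and Mef2, nor DMSO and JH3 in ken. Glut4EF had 20E and DMSO side by side, without a called difference, and JH3 above them. The call of Glut4EF ended without any of DMSO replicates 1, 3 and 4 (-0.64, -0.60 and -0.69, limma adjusted p = 0.0918 to 0.122) and within either run (-0.87 and -0.45, limma adjusted p = 0.0807 and 1.0). Without the run term it was -0.75 (limma adjusted p = 0.0501), and the adjusted p ran from 0.000365 to 1.0 over all alternatives.

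**Figure D3:**
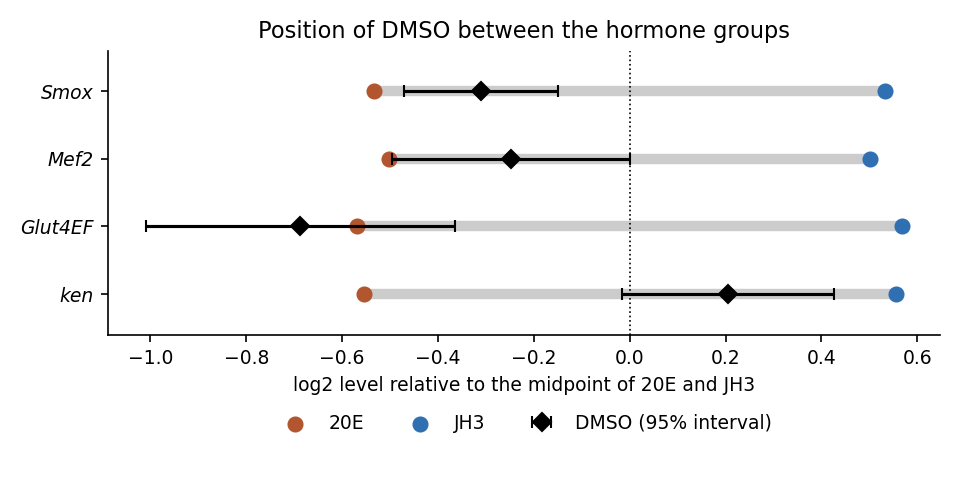
Fitted log2 levels of 20E, JH3 and DMSO relative to the midpoint of 20E and JH3 (x axis, dotted line at 0), with the 95% interval of DMSO, for each gene. DMSO lies at -0.69 for Glut4EF, -0.31 for Smox and -0.25 for Mef2, and at 0.20 for ken.

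Levels of these genes also differed between the run labels, a feature that the choice did not use. Mef2 was 0.70 higher on the log2 scale in run 200212 than in run 190514 (limma adjusted p = 3.43e-05), Smox 0.49 higher (limma adjusted p = 1.8e-05) and Glut4EF 0.36 higher (limma adjusted p = 0.0335). The level of ken had a difference of 0.01 (limma adjusted p = 0.917). Of all 9381 tested genes, 4779 differed between the runs. No member passed a test of whether its hormone effect depended on the run (limma adjusted p of at least 0.984), and 0 of all tested genes did. At an unadjusted p under 0.05 there were 207 such genes for 20E with DMSO, 450 for JH3 with DMSO and 248 for 20E with JH3. The 20E to JH3 difference of ken was -1.37 ± 0.18 in run 190514 and -0.92 ± 0.09 in run 200212 (difference between the runs -0.45 ± 0.20, unadjusted p = 0.0363, limma adjusted p = 0.99). For Glut4EF it was -1.49 ± 0.19 in run 190514 and -0.87 ± 0.18 in run 200212 (difference between the runs -0.62 ± 0.28, unadjusted p = 0.0405, limma adjusted p = 0.99).

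**Figure D4:**
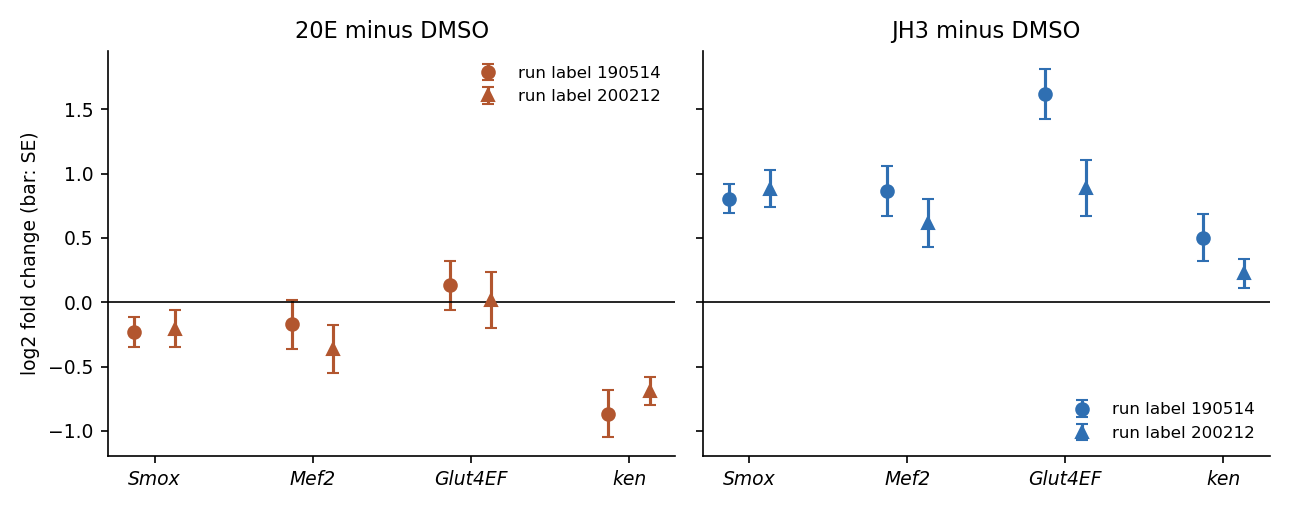
Log2 fold change of each gene within run label 190514 and within 200212 (y axis, bar: SE), for 20E minus DMSO and JH3 minus DMSO. The JH3 values lie above 0 in both runs for all 4 genes, and the 20E values lie below 0 in both runs for Smox, Mef2 and ken.

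Genes of the same pathways were followed by lists of fly symbols, the 4 genes themselves left out of every count. Of 16 tested genes of activin and BMP signalling, the pathway of Smox, 1 rose under 20E and none passed under JH3 (median log2 fold change 0.06 and -0.06, against -0.01 and 0.00 over all genes). The riser was Actbeta, an activin ligand, with 2.19 FPKM in 20E, 1.78 in JH3 and 1.07 in DMSO (20E log2 fold change 0.74 ± 0.19, limma adjusted p = 0.0313). The receptor kinase gene babo averaged 22.8 FPKM in 20E, 20.2 in JH3 and 20.2 in DMSO. The partner gene Med averaged 4.2, 3.78 and 3.96 FPKM in the same order, and neither passed in either comparison. Another activin ligand gene, daw, had 3.28 FPKM in JH3 and 1.54 in DMSO (log2 fold change 0.99 ± 0.26, limma adjusted p = 0.0927).

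Of the 8 other tested partners and regulators of Mef2, none passed against DMSO under either hormone (median log2 fold change 0.12 in 20E and 0.07 in JH3). HDAC4, the class IIa deacetylase that binds Mef2 proteins and restrains them, averaged 16.4 FPKM in 20E, 30.6 in JH3 and 19.6 in DMSO. It was 0.90 ± 0.15 lower in 20E than in JH3 on the log2 scale (limma adjusted p = 0.000655), the only 1 of the 8 to pass there. In that contrast 1.44% of all tested genes were called lower. That test was added later, on the contrast that chose the members, and the list was chosen with earlier results of these data known. Against DMSO the log2 fold change of HDAC4 was -0.33 ± 0.17 in 20E and 0.58 ± 0.17 in JH3 (limma adjusted p = 0.617 and 0.155).

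Of 7 tested genes of the JAK/STAT pathway, in which ken acts, 1 rose under both hormones and the other 6 did not pass (median log2 fold change 0.04 in 20E and 0.03 in JH3). That gene was chinmo, which encodes another BTB zinc finger factor, with 18.4 FPKM in 20E, 14.8 in JH3 and 8.47 in DMSO (log2 fold change 1.0 ± 0.14 and 0.72 ± 0.14, limma adjusted p = 0.000243 and 0.0142). The receptor gene dome averaged 9.95 FPKM in both hormone groups and 9.06 in DMSO. Stat92E, the transcription factor gene of the pathway, averaged 12.2 FPKM in 20E, 11.2 in JH3 and 13.5 in DMSO, and Socs36E, a target and inhibitor, averaged 12.9 FPKM in 20E, 13.05 in JH3 and 12.4 in DMSO.

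Of 12 tested genes of sugar transport and glycolysis, set beside Glut4EF for its name, 1 rose under 20E and none passed under JH3 (median log2 fold change 0.05 and -0.04). The glycogen synthase gene GlyS averaged 16.0 FPKM in 20E, 9.49 in JH3 and 10.3 in DMSO (20E log2 fold change 0.62 ± 0.08, limma adjusted p = 6.02e-05). The glucose transporter gene Glut1 averaged 19.1 FPKM in 20E, 17.1 in JH3 and 16.8 in DMSO and did not pass. Of 12 mushroom body and neuron identity genes, chinmo was the only one called against DMSO, under both hormones. The Pax6-type gene toy averaged 15.8 FPKM in 20E, 27.0 in JH3 and 20.8 in DMSO (log2 difference of 20E from JH3 -0.78 ± 0.13). It is among the 5 named genes most alike to ken over these same groups, so that difference is given without a test.

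Markers of other cell types were read in the same way. In bulk tissue, fewer cells of a type and less RNA per cell cannot be told apart. Because Mef2 is also a muscle gene, 14 muscle markers were summed, and they gave 203 to 353 FPKM in 20E, 205 to 378 in JH3 and 177 to 283 in DMSO. The largest parts of that sum were Mlc-c (group means of 72.1 to 73.7 FPKM) and RyR (55.1 to 63.2). The sum therefore hides the wider range of lower markers. Mlc1 had 8.74 to 22.7 FPKM in 20E, 6.65 to 56.0 in JH3 and 9.53 to 30.8 in DMSO. Mlc2 had 1.26 to 16.1, 1.13 to 49.6 and 1.87 to 14.8 FPKM in the same order. None of the 13 tested muscle markers passed under either hormone, and none of the defining ones listed was at 0: Mhc, the muscle myosin gene, had 3.56 to 12.1 FPKM in 20E, 2.77 to 26.3 in JH3 and 2.39 to 8.02 in DMSO. Of 8 glial markers, 1 rose under 20E (Gli, a junction gene, at 6.54 FPKM in 20E and 3.91 in DMSO, limma adjusted p = 0.0237). Under JH3 2 fell: moody, of the blood-brain barrier, had 21.6 FPKM in JH3 and 35.8 in DMSO (limma adjusted p = 0.0222), and the GABA transporter gene Gat-a had 34.5 in JH3 and 54.1 in DMSO (limma adjusted p = 0.0398). The fall of Gat-a was not particular to JH3. It had 37.8 FPKM in 20E, with a log2 fold change of -0.47 ± 0.14 (limma adjusted p = 0.0887), against -0.62 ± 0.14 in JH3. Its DMSO level lay 0.55 ± 0.13 above the midpoint of 20E and JH3 (limma adjusted p = 0.0312). For moody the 20E mean was 35.5 FPKM. The glial sum was 538 to 935 FPKM in 20E, 451 to 887 in JH3 and 785 to 1081 in DMSO. The glial factor gene repo averaged 30.3 FPKM in 20E, 29.1 in JH3 and 37.3 in DMSO. The other 6 glial markers did not pass under JH3, among them repo (log2 fold change -0.30 ± 0.11, limma adjusted p = 0.346) and the glutamine synthetase gene Gs2. Gs2, which makes up most of the sum, had 558 FPKM in 20E, 501 in JH3 and 732 in DMSO (limma adjusted p = 0.492 for 20E and 0.184 for JH3). The part of moody and Gat-a in the JH3 rises of Smox, Mef2 and Glut4EF was not tested. None of 13 neuron markers passed against DMSO, with sums of 850 to 1365 FPKM in 20E, 803 to 1042 in JH3 and 806 to 1016 in DMSO. Of 8 eye markers, rdgA rose and sev fell under 20E and none passed under JH3, with sums of 84.3 to 476 FPKM in 20E, 60.0 to 450 in JH3 and 61.9 to 510 in DMSO. None of 2 fat body and 3 haemocyte markers passed against DMSO.

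Between 20E and JH3 themselves, the contrast on which the members are low, the markers that passed were all higher in 20E. Calls over all tested genes leaned the same way, with 3.9% higher and 1.44% lower in 20E. Of 8 glial markers 3 passed, moody (log2 difference 0.68 ± 0.12), Gli (0.45 ± 0.12) and the engulfment receptor gene drpr (0.55 ± 0.11), which is also the 1 of 3 haemocyte markers that passed. Of 13 neuron markers 1 passed, the acetylcholine transporter gene VAChT (0.54 ± 0.11). The fat body marker Mtp (0.56 ± 0.16) and the eye marker rdgA (1.40 ± 0.11) passed as well, and no muscle marker did. The limma adjusted p of these ran from 9.34e-08 for rdgA to 0.0401 for Mtp, and their part in the members' differences was not tested. Of the pathway lists, GlyS was higher in 20E than in JH3 (0.73 ± 0.07, limma adjusted p = 1.32e-06) and HDAC4 was lower, as given above. None of the activin and BMP or JAK/STAT genes passed, and toy was lower but is described without a test.

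Likeness over the 19 brains was measured as Pearson's r of the log2 level after removing the run means. It includes the group differences that chose the members, so it is a description, and the points share library and depth. Between members r was highest for Smox and Mef2 (0.92) and for Smox and Glut4EF (0.90), and lowest for ken and Glut4EF (0.68). Among named genes, the closest to Smox were klu (r = 0.98), a zinc finger gene, cwo (0.96), a bHLH repressor gene of the clock, Pax (0.94), which encodes the adhesion scaffold paxillin, Sidpn (0.92), another bHLH repressor gene, and Mef2. The closest to Mef2 were foxo (0.95), the factor restrained by insulin signalling, klu (0.95), cwo (0.93), Smox and Stim (0.90), which encodes a calcium sensor.

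Glut4EF was closest to Delta (r = 0.96), the gene of a Notch ligand, then to wech (0.92), Sidpn (0.92), foxo (0.91) and the cadherin gene shg (0.90). The gene closest to ken was dsx (0.88), the sexual differentiation factor, followed by klu (0.88), the HLH gene emc (0.85), toy (0.85) and the ETS factor gene Ets97D (0.84). These genes were picked for following ken over the groups, so their own levels are given without a test. Ets97D averaged 4.51 FPKM in 20E, 7.24 in JH3 and 8.03 in DMSO (log2 fold change over DMSO -0.77 ± 0.08 in 20E and -0.13 ± 0.08 in JH3). The gene klu averaged 3.69 FPKM in 20E, 15.9 in JH3 and 5.88 in DMSO, with the larger step under JH3 (-0.67 ± 0.13 in 20E and 1.27 ± 0.13 in JH3). For dsx the means were 2.47 FPKM in 20E, 5.09 in JH3 and 3.38 in DMSO (-0.43 ± 0.11 in 20E and 0.50 ± 0.11 in JH3). For emc they were 60.1 FPKM in 20E, 115 in JH3 and 83.0 in DMSO (-0.47 ± 0.12 in 20E and 0.48 ± 0.12 in JH3). The values of toy were -0.48 ± 0.14 in 20E and 0.30 ± 0.14 in JH3.

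Within groups, the group differences that chose the members no longer enter. The values of r were lower there than above, which follows in part from how the members were chosen. With the means of each group and run removed, Smox and Glut4EF varied together over the 19 brains (Pearson r = 0.75, permutation p = 0.00177, adjusted over the 6 pairs 0.0106; Spearman rho = 0.79, permutation p = 0.00124, adjusted 0.00744). The value was 0.64 over the 9 brains of run 190514 and 0.83 over the 10 of run 200212. It was 0.68 without 20E replicate 7 and DMSO replicate 3, the brains farthest from the median of Smox. Leaving out both 20E replicate 6 and JH3 replicate 1 gave 0.70 (permutation adjusted p = 0.00312). With every library scaled to the same FPKM sum it was 0.66 and no longer passed (permutation adjusted p = 0.0656).

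The other 5 pairs had r from 0.03 to 0.44 (permutation adjusted p of at least 0.283), lowest for Smox and ken (0.03) and highest for Mef2 and Smox (0.44). Smox and ken had opposite signs in the runs, -0.35 in run 190514 and 0.54 in run 200212. Mef2 with ken had 0.49 and 0.06, Mef2 with Glut4EF 0.47 and 0.05, ken with Glut4EF -0.03 and 0.41, and Mef2 with Smox 0.38 and 0.51, each in run 190514 and then 200212. Their Spearman rho ran from 0.07 to 0.35 (permutation adjusted p of at least 0.385). Mef2 and Smox came to 0.66 without 20E replicate 6 and JH3 replicate 1 and then passed (permutation adjusted p = 0.0293).

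**Figure D5:**
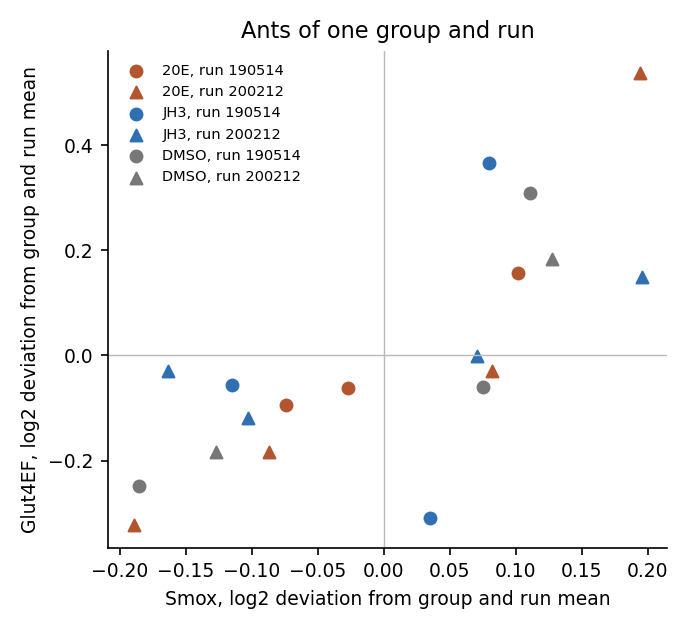
Log2 deviation of Smox (x axis) and Glut4EF (y axis) from the mean of the same group and run, 1 point per brain, coloured by group and shaped by run label. The points rise together (Pearson r = 0.75), with 20E replicate 6 at the upper right.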

How the data were processed

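RNA was measured in the central brains of 19 single ants. The authors deposited 1 table of FPKM values. The tools bcl2fastq, STAR, featureCounts and DESeq2 are named per the submitters' processing notes; their versions, the build and the annotation are not stated in the labels. Poly(A) libraries were strand-specific, per the labels' protocols. RefSeq's Hsal_v8.6 table gave symbols (13988 of 14001 identifiers matched). Whole reads were read back from the FPKM grid for 100% of the 13217 genes above 0, within 0.02 reads; they give the depths and the voom alternative.

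The model was limma 3.58.1 (R 4.3.3) on log2(FPKM + 0.5), the scale of all folds, over 19 libraries with group means, a run term and a trended prior. Tests were two-sided, with Benjamini-Hochberg adjustment over 9381 genes at 0.05. The fit was also run on simulated libraries, with changes set only in 20E and the same dispersion for every gene. That simulation does not copy the spread between these ants. Correlations were tested in Python 3.11.15 with 100000 permutations within group and run. Named genes are the members, the 5 symbols most alike to each, E75, Hr4, Kr-h1, and called genes, ligands, receptors or partners of the lists; the test of 20E with JH3 for list genes was added later. Members, lists and tests were chosen with earlier results of these data known. Alternatives changed the pseudocount, filter, scaling, weights, run term, replicate block, runs or libraries.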

Additional observations from a re-analysis of the deposited data

Results flagged for a closer look

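Among the 12 sets of values (4 genes in 3 groups), 2 held a brain far from the others of its group, and chance flags about 1 in 20 groups. Glut4EF had 36.8 FPKM in 20E replicate 6, where the gap to the next brain was 0.578 of the group's whole range, against a critical value of 0.568. In JH3 replicate 1, ken had 25.6 FPKM, with a gap of 0.685 of the range against the same critical value. The cause was not tested in either case.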

How the results depend on the processing

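No difference of a member between groups changed direction under any alternative that was run. Within groups, r of Smox with ken (0.03) and of ken with Glut4EF (0.12) fell below 0 in run 190514 alone (-0.35 and -0.03). The JH3 rise of Mef2 lost its call without the run term (0.87) and in run 190514 (0.86) or run 200212 (0.615) alone. In run 200212 alone the JH3 rises of Smox (0.88) and Glut4EF (0.89) did not pass, nor did the fall of ken under 20E in run 190514 alone (-0.87). The fall of Smox under 20E passed once libraries were scaled by total reads (-0.29) or the length trend was removed (-0.30). DMSO against the midpoint passed for Smox with a pseudocount of 1 (-0.31), a mean FPKM of at least 5 (-0.31), library weights (-0.32), total reads (-0.27), quantile normalization (-0.31), the length trend removed (-0.27), and without both 20E replicate 6 and JH3 replicate 1 (-0.31). For Glut4EF it did not pass without the run term (-0.75) or in run 190514 (-0.87) or 200212 (-0.45) alone. The difference of 20E from JH3 was -1.37 in run 190514 and -0.92 in run 200212 for ken, and -1.49 and -0.87 for Glut4EF. Single runs hold fewer samples; the cause of the other changes was not tested. Leaving out 1 library at a time gave -0.34 to -0.26 for DMSO against the midpoint in Smox (passing without 20E replicate 6 or 7 or JH3 replicate 1 or 7) and -0.80 to -0.60 in Glut4EF; no member's call in 20E or JH3 with DMSO changed. Counts of all genes called were lowest in run 200212 alone and highest with library weights: 50 and 583 for 20E with DMSO (313 as reported), 8 and 173 for JH3 with DMSO (87), 10 and 281 for the midpoint (129), and 160 and 743 for 20E with JH3 (501). Without the run term they were 193, 49, 81 and 313 in that order. For JH3 with DMSO they were 137 without 20E replicate 6, 151 by total reads and 163 with the length trend removed. For the midpoint they were 84 without DMSO replicate 3 and 81 without DMSO replicate 4, and 200 without both 20E replicate 6 and JH3 replicate 1, which gave 134 for JH3 with DMSO. Scaling by total reads called 228 genes higher and 110 lower in 20E than in DMSO, against 243 and 70 as reported.

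The labels do not say that replicate numbers mark a shared source, and with group and run means removed same-numbered brains correlated from -0.38 to 0.50. With a replicate block, DMSO against the midpoint was -0.30 for Smox and passed (limma adjusted p = 0.0217), and no other member's call changed. The block gave 274 genes for 20E with DMSO and 96 for JH3 with DMSO. Run 200212 holds 2 DMSO brains, which limits tests within it.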
